A study of Mus musculus with 20 samples.

Results

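The glutathione and Nrf2 antioxidant genes are 38 named genes of the 37681 listed in each table, found by their gene symbol. They comprise 20 glutathione transferases and 18 other antioxidant genes. All 38 passed the filter on low counts (5 reads or more in any 5 mice) in each of the 6 tables. Livers came from 10 male C57/B6J mice aged 12 weeks, all wild-type and dissected 4 hours after an injection. The injection held IL-1β, an inflammatory cytokine, at 20 µg/kg in 5 mice and saline in the other 5, called untreated here. RNA of each liver was sequenced on an Illumina and an Ion Torrent machine and aligned by GSNAP, STAR, or STAR with Bowtie2 for the reads left over, which gave 20 libraries and 6 tables. The tables describe the same 10 mice and are not independent evidence. The mice are UNT_9574, UNT_9575, UNT_9576, UNT_9580 and UNT_9584 (untreated) and ILB_9577, ILB_9578, ILB_9579, ILB_9582 and ILB_9583 (IL-1β), and values per mouse are given in that order. Levels are in CPM, counts scaled to a library of 1000000 after TMM normalization.

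Glutathione is the small thiol that cells use to reduce peroxides and to tag reactive compounds. Glutathione transferases join it to such compounds, and the liver is rich in them. Nrf2, encoded by Nfe2l2, is a transcription factor that Keap1 holds back until oxidants or electrophiles modify Keap1. It then binds antioxidant response elements and raises many detoxification and antioxidant genes.

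The promoters of 5 members are shown because the members differ in direction although several share the same short element. They were read from RefSeq windows on GRCm38.p6, which reach from 250 bases before to 50 bases after a transcription start. The capitals mark a match to the antioxidant response element core TGACNNNGC, on either strand, in the first 4. In Sod2 they mark a match to the kappa B type motif, also searched on both strands.
Txnrd1 (chr10:82859083-82859152, forward strand): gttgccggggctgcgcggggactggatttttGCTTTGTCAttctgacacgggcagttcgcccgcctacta
Gclm (chr3:122245392-122245461, forward strand): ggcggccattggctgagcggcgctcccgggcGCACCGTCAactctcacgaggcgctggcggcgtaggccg
Gsta3 (chr1:21240433-21240502, forward strand): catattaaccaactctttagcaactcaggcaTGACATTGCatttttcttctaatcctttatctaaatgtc
Nfe2l2 (chr2:75704844-75704913, reverse strand): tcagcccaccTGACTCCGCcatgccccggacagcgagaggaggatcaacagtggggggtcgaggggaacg
Sod2 (chr17:13007726-13007795, forward strand): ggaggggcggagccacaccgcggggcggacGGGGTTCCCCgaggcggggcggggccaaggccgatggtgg

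The 34 of 38 members with a window had 46 windows, since a gene can have several starts (Txnrd1 has 3 windows, of which 1 holds the core). The core was in 9 of these 46 windows, each of a different member, against 12.4% of all 32851 windows and at least 1 window of 13.99% of all 27025 genes listed. Among members called higher in all 6 tables it was in 2 of 3 with a window, Txnrd1 and Srxn1. Among those called lower in all 6 it was in 3 of 9, Gclm, Gsta3 and Sod1. The kappa B type motif was in 5 of the 46 windows, against 8.46% of all windows and 9.55% of all genes. It was in 1 of 3 members with a window called higher in all 6 tables, Sod2. It was also in 1 of 9 called lower in all 6, Cat, and otherwise in Gpx1, Gpx3 and Prdx1. A match is a description of letters, not a measured binding site.

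In the IL-1β mice, 8 of the 20 transferases were called lower in all 6 tables, against 17.6% of all genes tested. The other antioxidant genes split in both directions. In the Illumina GSNAP table, edgeR's quasi-likelihood test with Benjamini-Hochberg adjustment over all 15578 genes tested called 0 transferases higher and 9 lower, at an adjusted p below 0.05. All 20 transferases had a negative log2 fold change there, with a median of -0.42. Of the other 18 genes, 5 were called higher and 6 lower, with a median of 0.063. The median over all genes tested was 0, with 23.7% of them called higher and 23.9% lower. Without mouse UNT_9584, an untreated mouse that was highest for many members, the table gave 5 members higher and 12 lower, against 5 and 15 with it.

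The other 5 tables were tested in the same way. Illumina STAR called 6 higher and 14 lower (22.7% and 22.9% of all genes), and Illumina STAR + Bowtie2 called 6 and 16 (22.9% and 24.4%). Ion Torrent GSNAP called 5 higher and 17 lower (22.5% and 23.9%). Ion Torrent STAR called 6 and 15 (20.3% and 21.8%), and Ion Torrent STAR + Bowtie2 called 4 and 15 (22.8% and 24.0%). Without mouse UNT_9584 the lower calls were 11 with Ion Torrent GSNAP and 9 with Ion Torrent STAR + Bowtie2, and without mouse ILB_9578 they were 11 with Ion Torrent GSNAP. Over the whole set, 4 members were called higher in all 6 tables and 11 lower in all 6, while 13 were called in none and 10 in some. Of all genes tested, 17.3% were called higher in all 6 tables, 17.6% lower in all 6 and 40.8% in none.

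**Figure D1:**
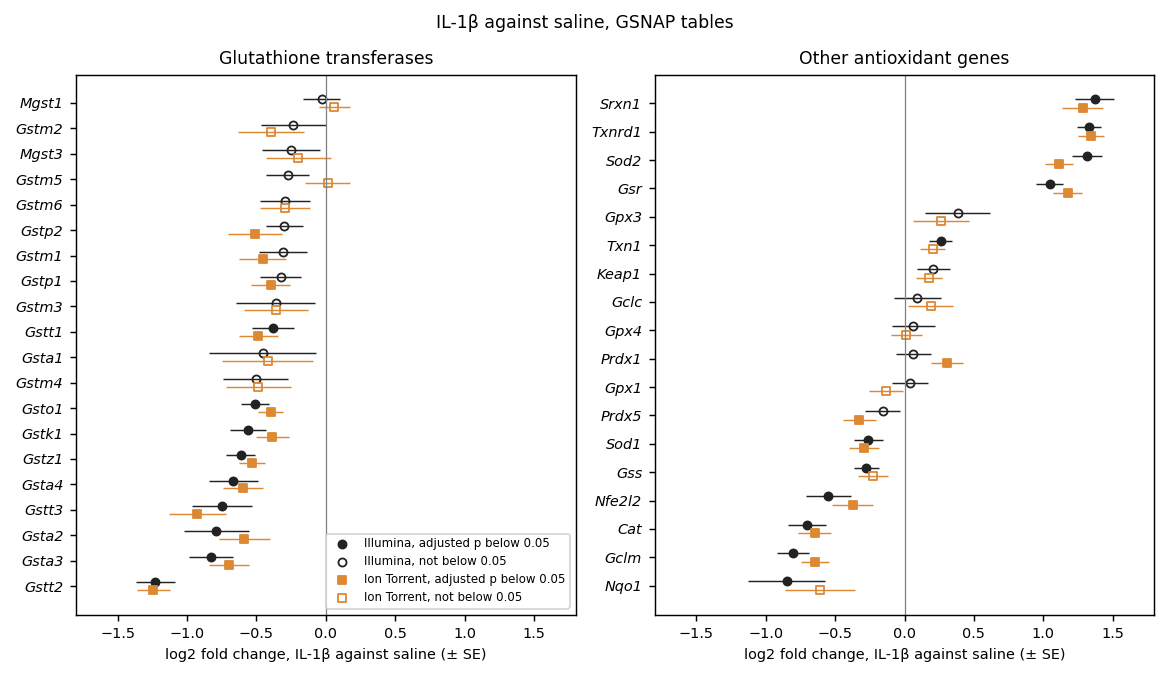
Log2 fold change of the 38 members, IL-1β against saline, with the standard error, in the Illumina (circles) and Ion Torrent (squares) GSNAP tables; filled points have an adjusted p below 0.05. The transferases lie from -1.23 (Gstt2) to -0.03 (Mgst1) on Illumina, while Srxn1, Txnrd1, Sod2 and Gsr lie above 1 on both platforms.

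Cell type markers moved with the treatment in these bulk livers, in which fewer cells of a type and less RNA per cell cannot be told apart. Summed over 8 hepatocyte markers, the level was 97079.7 to 117433 CPM in untreated and 73222 to 87917 in IL-1β mice (adjusted p = 0.0317, exact permutation test over 8 lists). Alb alone made up most of this sum, at 69200 to 86361 CPM in untreated and 50990 to 60585 in IL-1β mice. Trf and Tat were higher in every IL-1β mouse than in any untreated mouse. Of the 8 hepatocyte markers 2 were called higher and 4 lower. The sum of 10 neutrophil markers was 2.72 to 5.94 and 54.001 to 116 (adjusted p = 0.0317, same test). All 8 neutrophil markers tested were called higher, while Ly6g and Camp were under the filter. For the other 6 lists (macrophage, lymphocyte, endothelial, stellate, cholangiocyte and red cell) the adjusted p was 0.0635 to 0.437. The part of these shifts in the members' changes was not tested.

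Of the 2 regulators, 1 was lower. Nfe2l2, which encodes Nrf2 (chr2:75513570-75542698 on NCBIM37, the build of the tables and of the gene positions below), stood at 69.005, 87.8, 67.9, 66.3 and 117 CPM in the untreated mice and 53.98, 56.1, 66.4, 59.8 and 41.9 in the IL-1β mice. Only the lowest untreated mouse fell under the highest IL-1β mouse, and mouse UNT_9584 was far above the rest. For the gene, the log2 fold change was -0.55 ± 0.16 (SE) with an adjusted p of 0.0116, and the gene was called lower in 5 tables. Keap1, the inhibitor of Nrf2, stood at 38.8, 46.1, 46.1, 46.9 and 34.3 and 52.2, 38.7, 45.3, 52.5 and 56.5, with overlapping groups. Its log2 fold change was 0.21 ± 0.12 (SE) (95% interval -0.053 to 0.47, adjusted p = 0.18), and it was called in no table.

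Glutathione is made by glutamate-cysteine ligase, with the catalytic subunit Gclc and the modifier subunit Gclm, and then by glutathione synthetase, Gss. The pair of ligase subunits differed. Gclm (chr3:121948475-121972902) stood at 248, 220.1, 230.5, 232 and 309 CPM in untreated and 132, 129, 162, 162 and 125 in IL-1β mice. Every IL-1β mouse lay below every untreated mouse. On the log2 scale the change was -0.80 ± 0.12 (SE), with an adjusted p of 5.67e-05, and Gclm was lower in all 6 tables. Gclc stood at 268, 211, 204, 329.8 and 312 and 308, 206, 318, 356 and 224. Its groups overlapped over most of their range, and the log2 fold change was 0.092 ± 0.17 (SE) (95% interval -0.27 to 0.46, adjusted p = 0.701).

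Gss stood at 75.2, 68.7, 73.8, 88.1 and 74.2 CPM in untreated and 64.9, 56.05, 63.3, 63.5 and 66.1 in IL-1β mice. The groups did not overlap, but the gap was small and the log2 fold change was -0.28 ± 0.09 (SE) (adjusted p = 0.0206). Gss was called in the 3 Illumina tables, and without mouse UNT_9580 the adjusted p was 0.0512. Gsr, glutathione reductase, which returns oxidized glutathione to its reduced form (chr8:34762995-34808635), stood at 70.99, 68.7, 62.97, 69.6 and 85.5 and 138, 142, 159, 160.3 and 139. Every IL-1β mouse was above every untreated mouse. This gave a log2 fold change of 1.04 ± 0.10 (SE), a 2.06-fold rise (adjusted p = 9.87e-07), and the call held in all 6 tables.

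Txnrd1, Srxn1 and Sod2 rose with Gsr in all 6 tables. Txnrd1, cytosolic thioredoxin reductase (chr10:82296696-82360469), stood at 175, 164, 176, 153 and 177 CPM in untreated and 406, 439, 415, 464 and 401 in IL-1β mice. The groups did not overlap. The log2 fold change was 1.33 ± 0.087 (SE) (adjusted p = 3.1e-08), a 2.51-fold rise. Srxn1, sulfiredoxin, which repairs over-oxidized peroxiredoxins (chr2:151931252-151937112), stood at 44.9, 49.3, 45.9, 29.8 and 44.2 and 112, 104, 106, 140.2 and 91.97. The groups were apart, with untreated mouse UNT_9580 lowest of all, and the log2 fold change was 1.37 ± 0.14 (SE) (adjusted p = 2.31e-06). Sod2, the superoxide dismutase of mitochondria (chr17:13200705-13210985), stood at 161, 177, 185, 168 and 193 and 354, 503, 479, 457 and 402. It too had no overlap between groups, and the log2 fold change was 1.31 ± 0.11 (SE) (adjusted p = 2.94e-07).

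Other classical members fell or did not pass the test. Nqo1, a quinone reductase often used as a readout of Nrf2, was low, at 5.62, 5.76, 6.81, 5.11 and 12.9 CPM in untreated and 4.19, 2.78, 5.99, 4.29 and 2.76 in IL-1β mice. Mouse UNT_9584 was far above the rest of its group, and the groups overlapped. For the gene, the log2 fold change was -0.85 ± 0.28 (SE) (adjusted p = 0.0211), called lower in 4 tables. Without mouse UNT_9584 it was -0.54, with an adjusted p of 0.0585.

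Cat, catalase, which breaks down hydrogen peroxide in peroxisomes (chr2:103294006-103325317), stood at 2859.5, 3045, 2914, 3339.9 and 3674 in untreated and 1897, 1413, 2323, 2233 and 1862 in IL-1β mice. All IL-1β mice were below all untreated mice, and the log2 fold change was -0.70 ± 0.14 (SE) (adjusted p = 0.000704), lower in all 6 tables. Sod1, the cytosolic superoxide dismutase, was also lower in all 6, by a smaller log2 fold change of -0.26 ± 0.10 (SE) (adjusted p = 0.0476) in the Illumina GSNAP table. Gpx1, the abundant cytosolic glutathione peroxidase, stood at 985, 913, 1029.9, 1114 and 722 and 984, 787, 983, 1003 and 1139.9. Mouse UNT_9584 was the lowest of all in this Illumina table, and the groups overlapped. With GSNAP on Ion Torrent the same mouse was the highest of all, at 2359 CPM. On the log2 scale the change was 0.04 ± 0.13 (SE) (95% interval -0.24 to 0.32) on Illumina and -0.13 on Ion Torrent with GSNAP, called in neither.

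Among the remaining antioxidant genes, Txn1 (thioredoxin) had a log2 fold change of 0.26 ± 0.082 (SE) (adjusted p = 0.0169) and was called higher in the 3 Illumina tables. Prdx1, a peroxiredoxin, was called higher in 2 Ion Torrent tables and had a log2 fold change of 0.061 on Illumina with GSNAP. Prdx5, another peroxiredoxin, was called lower in the 3 Ion Torrent tables and had one of -0.16 on Illumina with GSNAP. Gpx3, the secreted peroxidase, had a log2 fold change of 0.38 and Gpx4, which reduces lipid peroxides, one of 0.064, neither called in any table. The coding sequences of Prdx1, Sod1 and Txn1 have near-identical copies elsewhere in the genome, so their read counts are uncertain. Gss, Gclm, Prdx5, Keap1, Gstz1, Gsto1 and Gstm5 overlap annotated genes on the opposite strand, whose reads cannot be told apart from theirs if strand was not used in counting. Gstt3 overlaps a protein-coding gene on its own strand, and Nfe2l2 and Gsr each hold a small RNA gene on theirs.

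**Figure D2:**
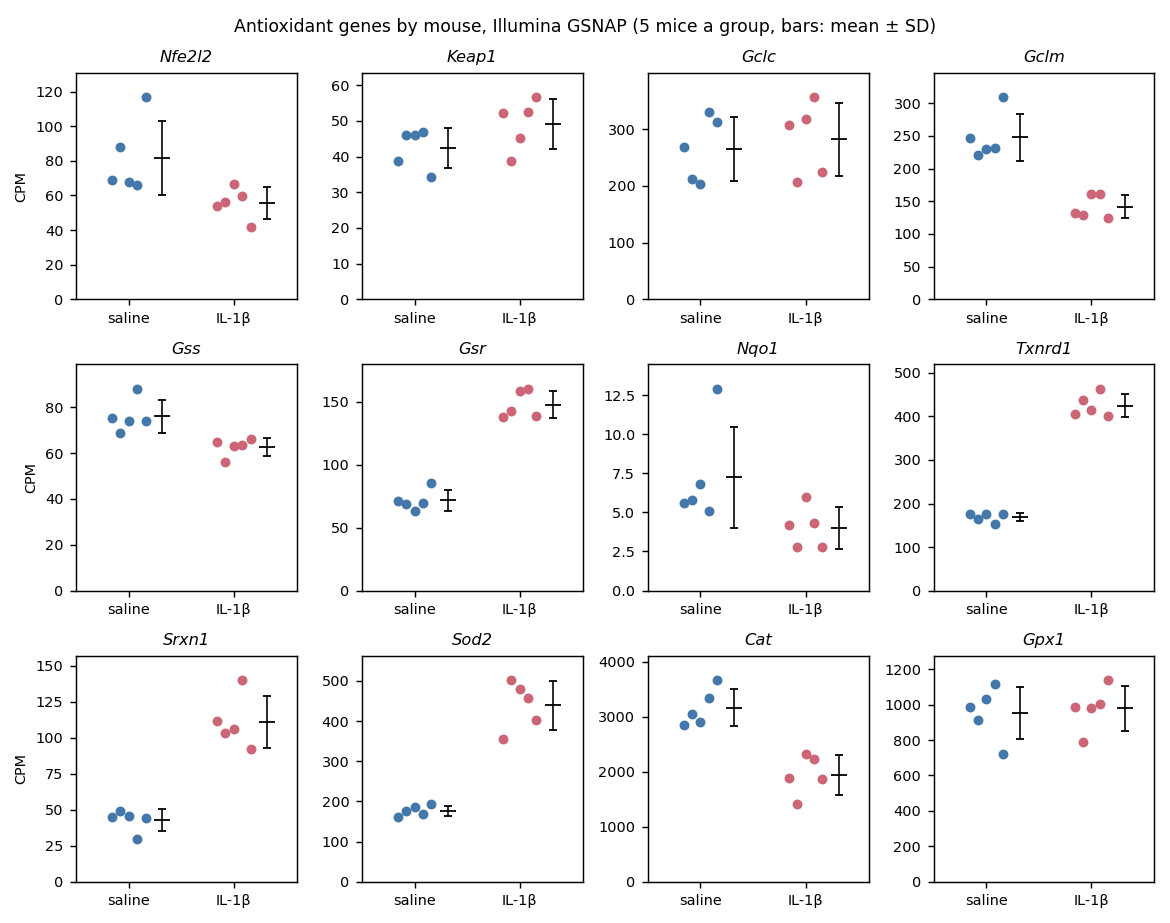
CPM (linear axes from 0) of 12 antioxidant genes in each mouse of the Illumina GSNAP table, with the mean and SD of 5 mice a group. Gsr, Txnrd1, Srxn1 and Sod2 are higher in every IL-1β mouse than in any untreated mouse, and Gclm, Gss and Cat are lower. The share of all genes with such separation was not counted.

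Of the 20 transferases, 8 were called lower in all 6 tables, against 17.6% of all genes tested. They were Gstt2, Gsta3, Gsta2, Gstt3, Gsta4, Gstz1, Gstk1 and Gsto1. Gstt2, of the theta class (chr10:75294590-75297626), stood at 39.5, 43.04, 49.5, 54.6 and 38.7 CPM in untreated and 20.2, 18.2, 16.3, 16.1 and 25.3 in IL-1β mice. The groups were well apart. Its log2 fold change of -1.23 ± 0.14 (SE) (adjusted p = 6.26e-06) was the lowest of the 38 members in the Illumina GSNAP table. Gstt3, also of the theta class, stood at 27.2, 48.2, 64.1, 37.5 and 58.2 and 27.3, 22.5, 32.7, 36.6 and 20.8. The lowest untreated mouse, UNT_9574, lay within the treated range, and the log2 fold change was -0.75 ± 0.21 (SE) (adjusted p = 0.00982, but 0.0699 by the rank test). Gstt1, the third of the class, was called lower in 5 tables, at -0.38 ± 0.15 (SE) (adjusted p = 0.0484).

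Gsta3, an abundant alpha class transferase (chr1:21230670-21255442), stood at 1375, 1716, 1835, 1402 and 2123 CPM in untreated and 931, 754, 1182, 1135 and 755 in IL-1β mice. The highest IL-1β mouse was below the lowest untreated one, and the log2 fold change was -0.83 ± 0.16 (SE) (adjusted p = 0.00064). Gsta2 stood at 24.2, 39.1, 42.1, 36.995 and 70.96 and 22.8, 22.1, 33.3, 27.2 and 17.96. Mouse UNT_9574 lay within the treated range and mouse UNT_9584 well above its group. This gave a log2 fold change of -0.79 ± 0.23 (SE) (adjusted p = 0.0119). Gsta4, known for clearing products of lipid peroxidation, stood at 56.4, 73.1, 65.1, 85.9 and 109 and 44.5, 38.3, 61.4, 59.9 and 41.3. Again only mouse UNT_9574 lay within the treated range, and the log2 fold change was -0.67 ± 0.18 (SE) (adjusted p = 0.00658). The low Gsta1 was called in no table (-0.45).

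Gstz1, of the zeta class, which also acts in tyrosine breakdown, stood at 639, 756, 683, 685 and 856 CPM in untreated and 482, 416, 512, 493 and 459.9 in IL-1β mice. The groups did not overlap, with a log2 fold change of -0.61 ± 0.10 (SE) (adjusted p = 0.00021). Gstk1, the kappa class enzyme of mitochondria and peroxisomes, stood at 86.1, 102, 97.8, 99.4 and 141 and 64.5, 61.8, 82.2, 81.1 and 67.3. Here too the groups were apart, by a narrow gap, and the log2 fold change was -0.56 ± 0.13 (SE) (adjusted p = 0.00283). Gsto1, of the omega class, stood at 109, 102, 104, 112 and 137 and 74.02, 81.3, 89.3, 70.7 and 80.1. All IL-1β mice were lower, with a log2 fold change of -0.51 ± 0.10 (SE) (adjusted p = 0.000773).

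**Figure D3:**
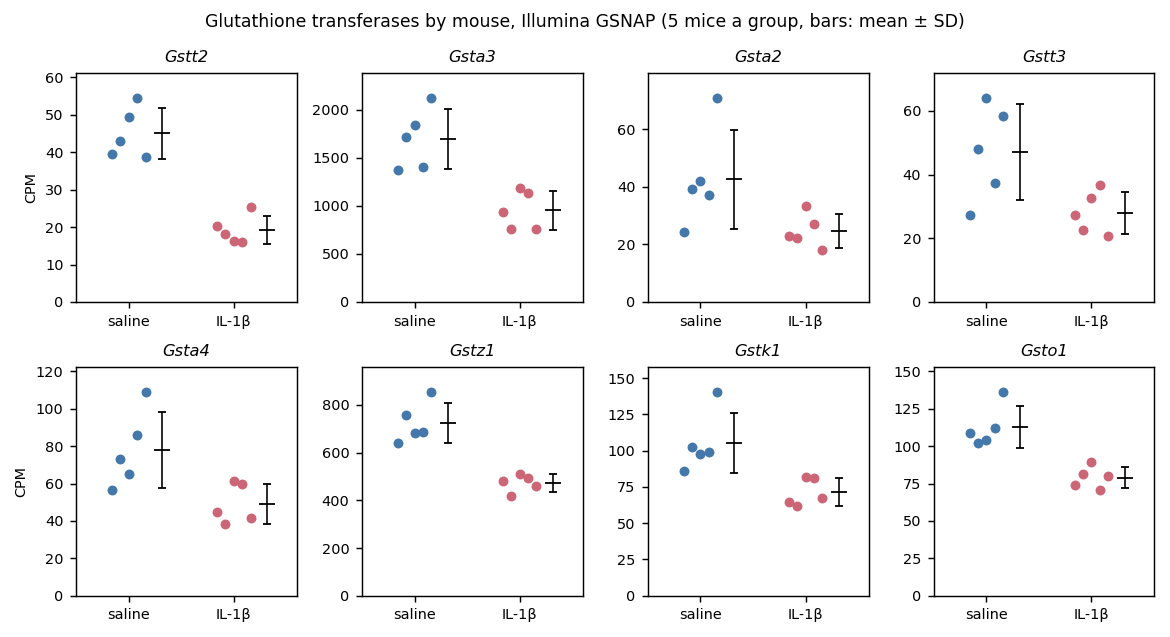
CPM (linear axes from 0) of the 8 transferases called lower in all 6 tables, in each mouse of the Illumina GSNAP table, with the mean and SD of 5 mice a group. Gstt2, Gsta3, Gstz1, Gstk1 and Gsto1 show no overlap between groups. The 8 were picked by adjusted p and size of change, so little overlap could be foreseen.

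No mu class or microsomal enzyme was called in the Illumina GSNAP table. Log2 fold changes of Gstm1 to Gstm6 in the Illumina GSNAP table were -0.31, -0.24, -0.36, -0.51, -0.27 and -0.30. Gstm1 was called lower in the 3 Ion Torrent tables. Gstm3 and Gstm6 overlap on the same strand, and several mu class coding sequences have near-identical copies, so their split is uncertain. Mgst1, a membrane-bound transferase, had a log2 fold change of -0.03 ± 0.13 (SE) (95% interval -0.31 to 0.25) and Mgst3 one of -0.25, both called in no table.

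Levels were compared between genes only per length. In RPKM (counts per kilobase of exon, scaled as CPM), in the untreated mice of the Illumina GSNAP table (mean ± SD, n = 5), Mgst1 stood highest of the transferases at 1924 ± 379.8. This order depended on the table, since Gstp1 had the highest mean with Ion Torrent STAR (1878 ± 383 against 1411 ± 124 for Mgst1) and with Ion Torrent STAR + Bowtie2. Gstm1 followed at 1294 ± 252 and Gsta3 at 1214 ± 225, which lie within their spread of each other. Gstp1 was at 874 ± 177, against 1825 ± 338 with STAR on the same libraries, and Gstz1 at 437 ± 51.3. Gsta1 was the lowest, at 5.03 ± 3.55. In the Illumina GSNAP table Mgst1 made up 29.9% of the summed transferase level in untreated and 37.04% in IL-1β mice. Gsta3 made up 18.9% and 13.4%. These shares hold for that table only, since the summed level includes Gstp1, whose level differed between aligners. Of the other genes, Cat at 1212 ± 129.8 and Gpx1 at 1125 ± 175 were highest and within their spread of each other on Illumina. In the Ion Torrent GSNAP table Gpx1 was at 2401 ± 236 and Cat at 1139 ± 91.9. Gpx3 was lowest at 2.64 ± 0.737.

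**Figure D4:**
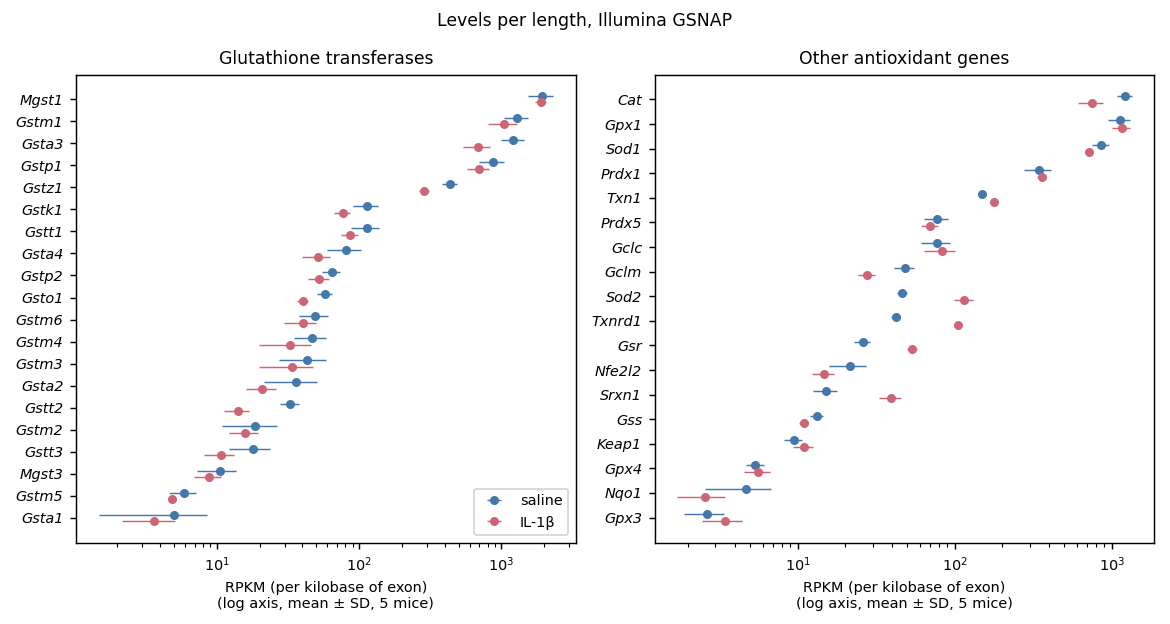
Level per length in RPKM (log axis, mean and SD of 5 mice a group) of the 38 members in the Illumina GSNAP table. In this table Mgst1 is the highest transferase in both groups, and Sod2, Txnrd1, Gsr and Srxn1 lie higher in the IL-1β mice.

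Gstp2 was the one member called higher in some tables and lower in another. Gpx1, Gpx4, Gstm5 and Mgst1 also changed sign between tables but were called in none. Gstp1 (chr19:4035411-4037921) and Gstp2 (chr19:4040291-4042221) are neighbouring pi class genes. Their coding sequences differed at 12 of 633 bases, an identity of 98.1%, with a longest identical run of 303 bases. The 90 bases with the most differences, 6, are shown, as few places in the coding sequence tell the pair apart. The untranslated parts of the exons were not compared. Capitals mark the bases that differ.
Gstp1 (chr19:4036694-4036783, reverse strand, NCBIM37): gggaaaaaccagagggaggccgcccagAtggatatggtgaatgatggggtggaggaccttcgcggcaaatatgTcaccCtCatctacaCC
Gstp2 (chr19:4040988-4041077, reverse strand, NCBIM37): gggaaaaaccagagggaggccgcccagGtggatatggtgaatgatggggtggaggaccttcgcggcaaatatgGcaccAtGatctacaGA

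With GSNAP on Illumina, Gstp2 stood at 48.01, 41.6, 41.8, 52.6 and 57.96 CPM in untreated and 43.1, 28.1, 42.2, 39.6 and 43.4 in IL-1β mice. The groups overlapped, with a log2 fold change of -0.30 ± 0.13 (SE) (adjusted p = 0.0761). With STAR on the same libraries it stood at 1.998, 1.45, 1.63, 3.73 and 2.04 and 20.9, 13.8, 19.6, 17.7 and 18.9. There the groups were far apart, and the log2 fold change was 3.06 ± 0.22 (SE) (adjusted p = 4.57e-08). The untreated counts were low, at 17 to 42 a library, beside 13180 to 20379 for Gstp1. With STAR + Bowtie2 on Illumina the log2 fold change of Gstp2 was 1.88 ± 0.17 (SE) (adjusted p = 6.36e-07). On Ion Torrent the log2 fold change was -0.51 ± 0.20 (SE) with GSNAP (adjusted p = 0.0417), 2.49 ± 0.20 (SE) with STAR (adjusted p = 3.79e-08) and -0.049 ± 0.14 (SE) with STAR + Bowtie2 (adjusted p = 0.8). Gstp2 was thus called higher in 3 tables, lower in 1 and in neither direction in 2. In the Illumina GSNAP table it was called lower without TMM scaling (adjusted p = 0.0131) and by the rank test (adjusted p = 0.0314). The rank test was also run on counts without TMM scaling.

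The share of Gstp2 among the reads of the pair differed with the aligner and with the platform. GSNAP put it at 5.65% to 9.66% in untreated and 6.47% to 7.48% in IL-1β mice on Illumina, and at 14.9% to 20.9% and 13.9% to 19.6% on Ion Torrent. For STAR the same values were 0.1199% to 0.206% and 1.49% to 1.78% (Illumina) and 0.157% to 0.297% and 1.3997% to 2.01% (Ion Torrent). Adding Bowtie2 gave 0.306% to 0.491% and 1.56% to 2.08% (Illumina) and 6.14% to 10.2% and 8.74% to 11.5% (Ion Torrent). The share was thus higher with IL-1β, with no overlap, in the STAR tables and in the Illumina STAR + Bowtie2 table. The summed level of the pair in untreated mice had a median of 652 CPM with GSNAP and 1247 with STAR on Illumina, set side by side without a test. Gstp1 itself had a log2 fold change of -0.33 with GSNAP and -0.35 with STAR on Illumina and was called lower in 2 of the 6 tables. A further locus, chr1:193897701-193898333 within Traf5, matched the whole Gstp2 coding sequence at 99.2% identity and the whole Gstp1 coding sequence at 97.6%. How the reads of these loci were shared was not tested.

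**Figure D5:**
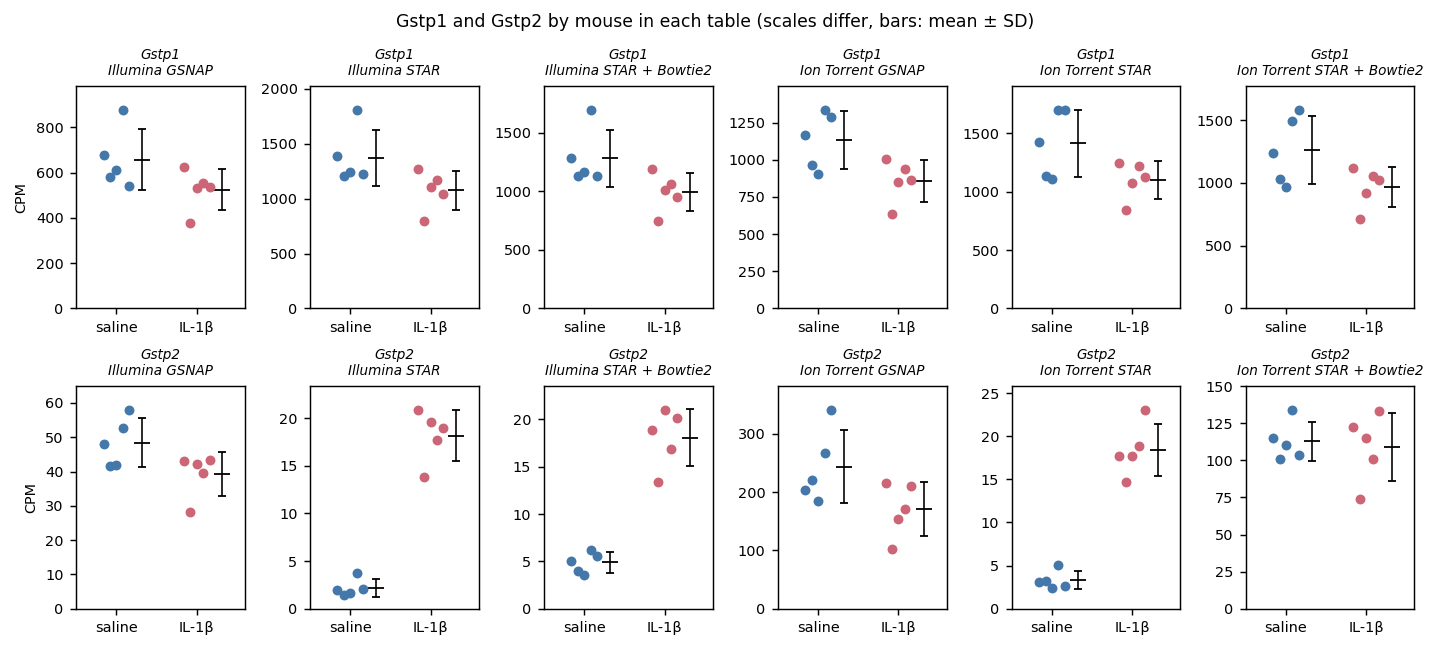
CPM of Gstp1 (top) and Gstp2 (bottom) in each mouse of the 6 tables, with the mean and SD of 5 mice a group; axes start at 0 and their scales differ. Gstp2 is higher with IL-1β in the STAR tables of both platforms and in the Illumina STAR + Bowtie2 table, and not in the other 3.

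The IL-1β effect was also compared between platforms, in a fit with the mouse as a block. The platform-by-treatment term had an adjusted p below 0.05 for 0 of the 38 members in the GSNAP fit, 0 in the STAR fit and 1 in the STAR + Bowtie2 fit, against 0.0642%, 0.00642% and 0.0770% of all genes. At an unadjusted p below 0.05 there were 1, 5 and 5 members, against 7.80%, 7.00% and 7.77% of all genes in the same edgeR fits. The member called was Gstp2, with a lower log2 fold change on Ion Torrent than on Illumina (term -1.96 ± 0.12 SE, adjusted p = 1.59e-09).

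Gpx4 was called in no table, but its level differed between aligners. With GSNAP on Illumina it stood at 8.24, 7.601, 10.5, 9.04 and 9.75 CPM in untreated and 9.44, 6.87, 10.01, 11.9 and 9.03 in IL-1β mice. With STAR on the same libraries it stood at 142, 152, 166, 174 and 164 and 142, 141, 161, 170.2 and 138. Each table was normalized separately, so these levels are set side by side without a test. A copy of Gpx4 without introns lies at chr10:45595140-45595651 and has no gene in the annotation used. It differed from the coding sequence of Gpx4 (chr10:79509911-79519184) at 2 of 512 aligned bases. A stretch of each is shown, with the difference in capitals, to let the likeness be seen. The part of this copy in the difference between aligners was not tested.
Gpx4 (chr10:79517445-79517534, forward strand, NCBIM37): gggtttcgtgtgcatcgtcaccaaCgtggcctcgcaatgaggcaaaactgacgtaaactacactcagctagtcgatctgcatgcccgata
Gpx4 copy (chr10:45595237-45595326, forward strand, NCBIM37): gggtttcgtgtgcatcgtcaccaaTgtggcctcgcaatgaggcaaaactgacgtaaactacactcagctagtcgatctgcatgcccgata

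Of 75 further genes of the glutathione and Nrf2 pathways, 67 were tested. With Illumina GSNAP, 12 were called higher and 27 lower (median log2 fold change -0.29), against 23.7% and 23.9% of all genes tested. In all 6 tables, 11 were higher and 18 lower, against 17.3% and 17.6% of all genes. The highest log2 fold changes were those of Chac1, which degrades glutathione, at 2.16 ± 0.38 (SE) (adjusted p = 0.000287), and Abcc1, an exporter of glutathione conjugates, at 1.27 ± 0.22 (SE). Hmox1, heme oxygenase and a classical Nrf2 target, was at 1.04 ± 0.23 (SE), and Sqstm1, which binds Keap1, at 0.97 ± 0.12 (SE). The lowest were Osgin1 at -2.12 ± 0.30 (SE), Chac2, a second glutathione-degrading enzyme, at -2.08 ± 0.13 (SE), Txnip, which binds thioredoxin, at -1.75 ± 0.21 (SE), and Abcc2, the canalicular exporter of conjugates, at -1.29 ± 0.14 (SE). These 8 were called in all 6 tables.

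Chac1 stood at 5.86, 1.28, 4.86, 7.95 and 1.32 CPM in untreated and 13.8, 15.3, 18.6, 21.6 and 26.3 in IL-1β mice. Chac2 stood at 25.9, 30.5, 27.1, 27.6 and 36.4 and 7.84, 5.75, 7.86, 6.63 and 6.75. The 2 enzymes thus moved in opposite directions, each with no overlap between groups. Hmox1 stood at 19.6, 12.3, 13.7, 20.3 and 29.9 and 40.3, 30.3, 57.7, 39.9 and 28.6, with overlapping groups and an adjusted p of 0.0019 (0.0699 by the rank test). Ephx1, microsomal epoxide hydrolase, was lower, at -0.49 ± 0.15 (SE) (adjusted p = 0.0141), while G6pdx, which supplies NADPH, was at 0.14 ± 0.21 (SE) (adjusted p = 0.622). Slc7a11, the cystine importer, had at most 15 reads in any library and was not tested.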

How the data were processed

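The values deposited by the authors are whole-number count values per gene, in 6 tables of 10 libraries. Per the submitters' processing notes, reads were aligned to mm9 with GSNAP, STAR 2.5.1b, or STAR followed by Bowtie2 2.2.9. Per the methods, PORT removed rRNA and mitochondrial reads, drew the same number of gene-mapping reads from every library of a table, and counted these on Ensembl gene models. The strand setting of the counting, and whether an Illumina count is a read or a pair, are not given in the sources used here. Gene counts still sum to unequal totals, which were 10568530 to 12008799 per library (Illumina) and 12199528 to 16439683 (Ion Torrent), and all 60 columns were used.

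Because each table was normalized separately, IL-1β was compared with saline within tables. Genes were kept if any table had 5 reads or more in any 5 mice, and the 15578 kept were fitted with edgeR 4.0.16 (TMM, quasi-likelihood test, Benjamini-Hochberg over all of them). CPM use the TMM library size. Fold changes are moderated by edgeR's prior count, and SE are the log2 fold change over the square root of the F statistic. The platform-by-treatment term was fitted per aligner to 20 libraries with the mouse as a block. The mouse number pairs the libraries because both came from the same liver RNA, and deviations of a mouse's libraries from its group correlated at 0.547 to 0.721 for 9 mice and 0.199 to 0.248 for mouse UNT_9584. Library pairs differed beyond sampling noise. Marker sums were compared with a two-sided exact permutation test, whose smallest p for 5 against 5 is 0.00794. The steps were tested on simulated data, where edgeR, DESeq2, limma-voom and the platform fit recovered most of the changed genes and the rank test, with few genes changed, made no call. The share required of these fits was lowered after limma-voom had missed the first one, which edgeR, DESeq2 and the platform fit met.

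Members, pathway and marker lists were chosen with earlier results of these data known. The share of all genes whose groups do not overlap was not counted, so groups that lie apart are a description only. Values per mouse are given for genes set by role, for up to 8 transferases and 4 other members with the largest change and one sign in all tables, and for members with a platform-by-treatment term. Of the other pathway genes, those are named that had the 4 highest and 4 lowest changes among genes called in all tables, besides Hmox1, Slc7a11, G6pdx and Ephx1. Gene positions and exon lengths are from GENCODE vM1 on NCBIM37. Coding sequences were searched with blastn 2.17.0, where a copy is at least 150 bases at 90% identity. Promoters are RefSeq windows on GRCm38.p6, for which no coordinate was converted. Alternatives were DESeq2, limma-voom, the rank test the study used, RLE or no scaling, other filters, and each mouse left out. The rank test was run on the deposited counts, without TMM scaling.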

Additional observations from a re-analysis of the deposited data

Results flagged for a closer look

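Within groups of 5 mice of the Illumina GSNAP table, 7 of 76 groups had a mouse whose gap to the nearest value passed Dixon's 95% limit, where chance gives about 1 in 20. Untreated mouse UNT_9584 was the highest of its group in 4 of them. It stood at 10.8 CPM for Gsta1, 5231 for Mgst1, 12.9 for Nqo1 and 1404 for Prdx1. Untreated mouse UNT_9580 was low for Srxn1, at 29.8. IL-1β mouse ILB_9578 was low for Gstp2, at 28.1, and for Gss, at 56.0. Mouse UNT_9584 also had the lowest agreement between its Illumina and Ion Torrent libraries. With GSNAP on Ion Torrent it was again the highest untreated mouse for Gsta1 (16.3 CPM) and Nqo1 (9.25). There its Mgst1, at 3393, was close to the next untreated value of 3288, and its Prdx1, at 806, lay within the untreated range.

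With STAR + Bowtie2, the IL-1β change in Gstp2 counts differed between platforms, by a tested platform-by-treatment term of -1.96 on the log2 scale. The untreated Gstp2 counts of that aligner were 45 to 75 a library on Illumina and 1666 to 2175 on Ion Torrent. How the reads of near-identical loci were shared was not tested. With GSNAP and STAR the term was -0.22 and -0.58, with adjusted p-values of 0.635 and 0.653.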

How the results depend on the processing

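Without TMM scaling, the median of all genes lay at -0.11 on the log2 scale in the Illumina GSNAP table against 0 with it, and 4 members were called higher and 20 lower there, against 5 and 15. Gclc (-0.023) and Gpx1 (-0.089) then turned negative. By the ratio of means beside the rank test, Gclc was at -0.072, Gpx1 at -0.14 and G6pdx at -0.025. Gpx1 was at -0.13, -0.11 and -0.13 in the Ion Torrent tables with GSNAP, STAR and STAR + Bowtie2. None of these was called. Gstp2 was at 3.06 with Illumina STAR, 1.88 with Illumina STAR + Bowtie2 and 2.49 with Ion Torrent STAR, against -0.30. The rank test called 7 other pathway genes higher with Illumina GSNAP and 3, 5 and 3 with Ion Torrent GSNAP, STAR and STAR + Bowtie2, against 12, 13, 13 and 11. It made no call in the simulated data, where few genes were changed. By it Gstt3 (-0.92) and Hmox1 (0.88) lost their call, both at an adjusted p of 0.0699. Gstp2 became a lower call with it (-0.47) and in the edgeR fit without TMM (-0.42), and neither used TMM scaling. Gss, with no filter, had an adjusted p of 0.0504.

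Leaving out each mouse gave 11 to 16 members lower with Ion Torrent GSNAP and 9 to 16 with Ion Torrent STAR + Bowtie2. It gave Gclc -0.022 to 0.18, Gpx1 -0.045 to 0.10 and G6pdx -0.047 to 0.25. The log2 ratio of marker sums was -0.48 to -0.40 for hepatocyte, 4.22 to 4.55 for neutrophil, -0.98 to -0.58 for lymphocyte, -0.36 to -0.21 for stellate and -0.52 to -0.32 for red cell lists. With 4 mice against 5, fewer small p-values are possible, and the hepatocyte and neutrophil adjusted p reached 0.0635. Other lists passed at an adjusted p of 0.0423, stellate without mouse ILB_9577, red cell without ILB_9579 and lymphocyte without UNT_9580. Without the replicate block, the platform-by-treatment term was called for 0, 0 and 1 members, as with it, and Gstp2 with STAR + Bowtie2 was at -1.95. Causes were not tested. In the Illumina GSNAP table Gsta1 had 20 to 123 reads a library, Nqo1 29 to 147 and Gpx3 37 to 86. With Illumina STAR, Gstp2 had 17 to 42 in the untreated mice. The part of depth in the errors of these genes was not tested.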
